A study of Mus musculus with 6 samples.

Results

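Glycolysis and the response to low oxygen were followed through 31 genes: 18 enzyme genes of the route from glucose to lactate, 6 genes of the switches that set its rate or the fate of pyruvate, and 7 genes of the hypoxia-inducible factor (HIF) pathway outside glycolysis. They were taken by symbol from a table of 22614 rows, of which 22105 carried Ensembl gene identifiers, and all 31 symbols were found. The cells were RAW264.7, a mouse macrophage line, in 2 groups of 3 libraries. The first group received phosphate buffered saline (PBS). The second was given nanoparticles named CM-PEG-PLGA@DOX/R848, dosed to carry 2 µg/mL of DOX, and both were harvested after 24 h. DOX is doxorubicin, which poisons topoisomerase II, R848 is resiquimod, a Toll-like receptor agonist, PEG and PLGA are polymers, and the labels do not say what CM stands for. No library received 1 component alone, so the effects of the drug, the agonist and the carrier cannot be told apart. Replicates are numbered 1 to 3 in both groups, and nothing says that they were separate cultures, so p-values reflect only how far these samples vary, and that variation may be technical.

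In glycolysis, glucose is phosphorylated by hexokinase, committed to breakdown by phosphofructokinase and split by aldolase, and the later enzymes make ATP and pyruvate. Lactate dehydrogenase turns pyruvate into lactate, while pyruvate dehydrogenase admits it to mitochondria unless a pyruvate dehydrogenase kinase (PDK) shuts that enzyme off. When oxygen is short, prolyl hydroxylases no longer mark HIF-1 alpha for destruction, and the factor switches on many of these genes together with Vegfa, Bnip3, Ndrg1 and P4ha1. Macrophages activated through Toll-like receptors are known for a shift towards glycolysis and for HIF-1 alpha that accumulates in normal oxygen.

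HIF binds a short core, ACGTG or GCGTG, in the DNA of its target genes. The following stretches of 60 bases lie before the RefSeq start site of members that fell (Pdk1, Ldha, Pgk1 and Bnip3) and of members that rose (P4ha1, Hif1a and Pdk3). Stretches were taken only around a match, so each carries the core by construction, and its presence in both sets shows nothing about direction. Eno2, which rose, and Tpi1 and Gpi1, which fell, had no match near their start sites and could not be shown. Capitals mark each match to the core on either strand, and CACGTG, the E-box, holds a match on both strands.
Pdk1: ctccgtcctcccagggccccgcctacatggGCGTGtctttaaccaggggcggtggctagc
Ldha: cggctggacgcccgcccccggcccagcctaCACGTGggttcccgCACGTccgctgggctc
Pgk1: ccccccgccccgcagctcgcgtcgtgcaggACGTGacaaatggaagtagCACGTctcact
Bnip3: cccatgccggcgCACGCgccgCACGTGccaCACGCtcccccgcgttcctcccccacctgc
P4ha1: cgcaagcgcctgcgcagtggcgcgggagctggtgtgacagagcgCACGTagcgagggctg
Hif1a: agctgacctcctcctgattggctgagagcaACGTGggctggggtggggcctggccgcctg
Pdk3: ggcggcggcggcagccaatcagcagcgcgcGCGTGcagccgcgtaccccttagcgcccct
In GRCm38.p6 these are chr2:71873116-71873175 (plus strand) for Pdk1, chr7:46845726-46845785 (plus) for Ldha, chrX:106186920-106186979 (plus) for Pgk1 and chr7:138909576-138909635 (minus) for Bnip3. They are chr10:59323236-59323295 (plus) for P4ha1, chr12:73907767-73907826 (plus) for Hif1a and chrX:93832225-93832284 (minus) for Pdk3. None of the 7 overlaps an exon annotated in GENCODE M21. The last 30 bases of the windows that hold the printed Ldha and Hif1a stretches were not found in a transcript of the gene there, so these RefSeq starts lack that check, and the sequences are those of RefSeq. RefSeq windows of 250 bases before to 50 bases after a start site were matched for 30 of the 31 members, all but Ndrg1, with 45 windows in all. A core match, ACGTG or GCGTG on either strand, stood in a window of 27 of the 30 genes (90%). The share was 69.5% of the 8104 tested genes with a window and 46.7% of all 27025 genes with one. A gene with more windows has more places for a match. Counted by window, the share was 77.8% in members, 63.3% in tested genes and 43.8% in all genes. Among members that rose 6 of 7 genes had a match, and among members that fell 14 of 16, so presence of the core in this window did not separate them. The longer E-box CACGTG stood in windows of 1 of the 7 and 3 of the 16. A match is a string of letters, not a measured binding site.

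Levels are read as FPKM, fragment numbers scaled to transcript length and library size, a unit inferred from the values. Comparison between genes and isoenzyme shares rest on that inference. Differences were tested with limma on log2(FPKM + 1) over every gene whose mean reached 1 FPKM, and a gene is called at a Benjamini-Hochberg adjusted p under 0.05. Each log2 fold change below is nanoparticle minus PBS on that scale, with its SE, and changes of low genes are understated by it. The libraries had 12678 to 12872 genes above 0 FPKM under PBS and 15723 to 15989 under nanoparticles. The spacing of low values implied 17800000 to 21400000 fragments under PBS and 17000000 to 17800000 under nanoparticles, as a rough inference. It was read from a binned scale on which 17000000 and 17800000 are neighbouring bins. Of 9 macrophage markers, 8 reached a mean of 1 FPKM, all but Mertk. The summed level of the 9 was 3358 to 3500.0 FPKM under PBS and 1429 to 1526 FPKM under nanoparticles, and the part of that shift in the results below was not tested. For markers of fibroblasts, epithelial, T, B, endothelial and dendritic cells and neutrophils the sums stayed at or under 1.51 FPKM in every library, with Krt18, Krt19, Cd3g and Cd8a at 0 throughout. In these bulk samples, fewer cells that carry a transcript and less of it per cell cannot be told apart.

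Most glycolytic enzyme transcripts were lower after nanoparticle treatment, while the hypoxia-inducible genes outside glycolysis split. Of the 31 members, 27 passed the filter on low values and 4 did not, and none of the 27 had a group mean under 1 FPKM. Of the 27, 16 fell, 8 rose and 3 were not called. Over all 10229 genes tested 34.5% were called lower, 42.7% higher and 77.2% in either direction, so the share of members that fell, 59.3%, was above that background and the share that rose, 29.6%, was below it. The balance over all genes depended on scaling: of the 10229, 3735 were called higher and 4163 lower under upper quartile scaling, where 18 members fell and 8 rose, and 3942 and 3947 under median-ratio scaling. The median log2 fold change was -0.43 over the 27 members and 0.08 over all tested genes. The groups did not overlap in 25 of the 27 members, 92.6%, against 78.8% of all tested genes. A log2 fold change of at least 1 in size was reached by 9 called members, 33.3% of those tested, against 17.7%. These were Pdk1, Pfkl, Egln1, Aldoc, Ldha and Eno1 among those that fell, and Ndrg1, Eno2 and Vegfa among those that rose. All 9 are protein-coding, with these loci in GRCm38. Among those that fell, Pdk1 (ENSMUSG00000006494) lies at chr2:71873224-71903858, Pfkl (ENSMUSG00000020277) at chr10:77986947-78010083, Egln1 (ENSMUSG00000031987) at chr8:124908587-124949324, Aldoc (ENSMUSG00000017390) at chr11:78322968-78327781, Ldha (ENSMUSG00000063229) at chr7:46841475-46855627 and Eno1 (ENSMUSG00000063524) at chr4:150236721-150248879. Among those that rose, Ndrg1 (ENSMUSG00000005125) lies at chr15:66929318-66969640, Eno2 (ENSMUSG00000004267) at chr6:124760053-124769673 and Vegfa (ENSMUSG00000023951) at chr17:46016993-46032369. Together the 31 genes held 2.33% to 2.42% of a PBS library's FPKM and 1.52% to 1.67% of a nanoparticle library's.

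By role, 13 of the 17 tested genes of the glycolytic steps fell, 2 rose (Hk3 and Eno2) and 2 were not called (Aldoa and Gapdh). Their median was -0.58 on the log2 scale, and the share that fell was 76.5%, against 34.5% of all tested genes. Of the 6 tested hypoxia genes outside the route, 4 rose (Ndrg1, Vegfa, P4ha1 and Hif1a) and 2 fell (Egln1 and Bnip3), and the median was 0.61. The shares were 66.7% and 33.3%, against 42.7% and 34.5% of all tested genes. Of the 4 tested switch genes, Pdk3 and Pfkfb4 rose, Pdk1 fell and Pfkfb3 was not called. The lists were chosen with earlier results of these data known, so the contrast between them is a description with no test.

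**Figure D1:**
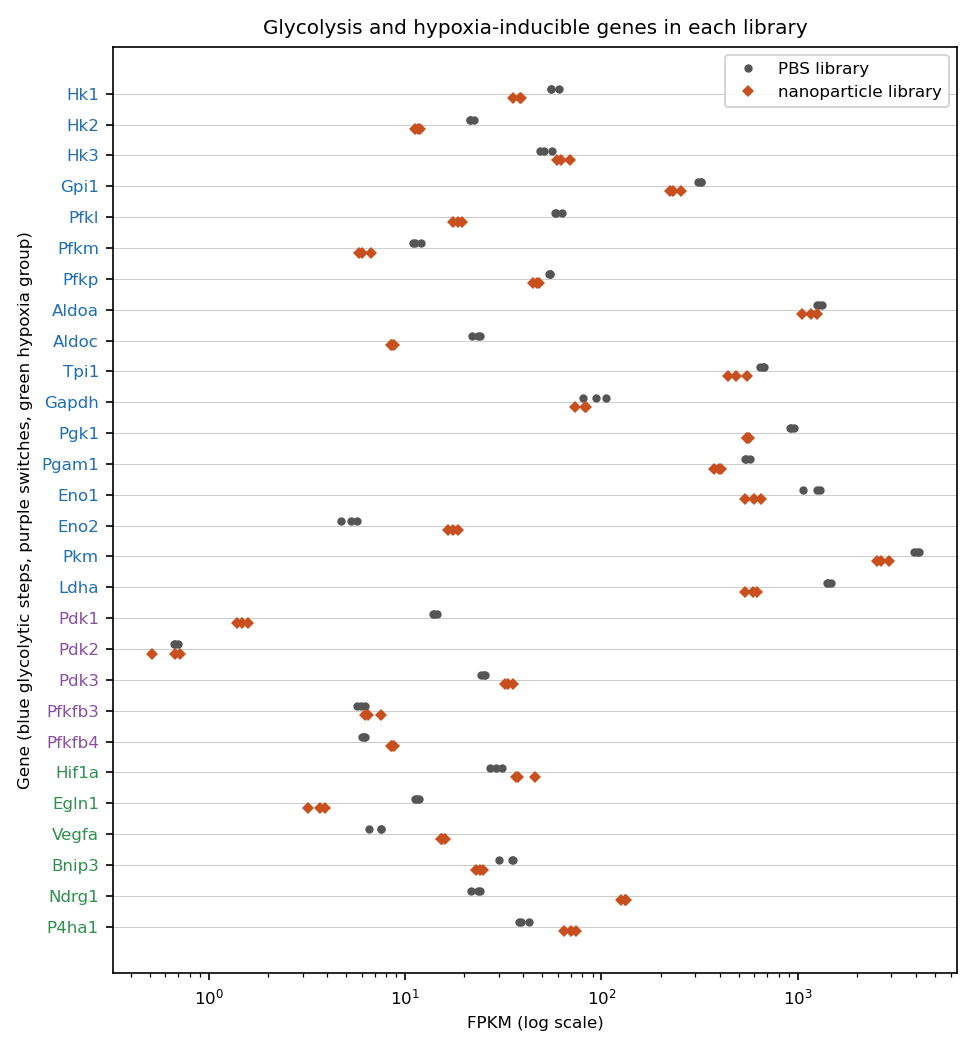
FPKM (log axis) of the 28 members above 0 in every library, with PBS libraries as circles and nanoparticle libraries as diamonds. Replicates of a gene lie close together. Pdk1 and Ndrg1 show the widest gaps between the groups, while the points of Aldoa, Gapdh and Pdk2 overlap.

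The 3 hexokinases moved in different directions. Hk1, the widely expressed form that binds mitochondria, stood at 60.7, 55.4 and 55.0 FPKM under PBS and at 38.5, 35.5 and 39.1 FPKM under nanoparticles. All nanoparticle libraries lay below all PBS libraries, and it fell (log2 fold change -0.59 ± 0.06, limma adjusted p = 1.48e-05). Hk2, the inducible form and a known HIF target, was at 22.5, 21.3 and 21.3 FPKM under PBS and at 11.6, 11.2 and 11.9 FPKM after treatment, a fall of 1.87-fold as a ratio of means. Hk3, the form typical of myeloid cells, went the other way, from 55.7, 51.0 and 48.9 FPKM to 69.2, 62.5 and 59.6 FPKM. Every nanoparticle library was above every PBS library, and the rise was small (log2 fold change 0.29 ± 0.07, limma adjusted p = 3.95e-03). Hk3 made up 39.7% ± 0.559 (SD, n = 3) of the summed hexokinase FPKM under PBS and 56.4% ± 2.19 under nanoparticles, and took the place of Hk1 as the most abundant of the 3. The sum itself was 131 ± 7.25 FPKM against 113 ± 5.41 FPKM.

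Phosphofructokinase, the committed step, lost transcript mainly through its liver form. Pfkl stood at 63.3, 58.3 and 58.2 FPKM under PBS and at 19.5, 18.6 and 17.5 FPKM under nanoparticles. That was a 3.23-fold drop of the mean (log2 fold change -1.64 ± 0.06, limma adjusted p = 1.09e-08), and no other glycolytic enzyme among the members had a log2 fold change as low. Pfkm, the muscle form, fell from 11.4 ± 0.599 to 6.19 ± 0.441 FPKM. The platelet form Pfkp was at 54.3, 54.6 and 54.5 FPKM under PBS and at 44.9, 46.8 and 47.8 FPKM under nanoparticles, a fall of 1.17-fold. The share of Pfkp in the family thus went from 43.3% ± 1.24 to 65.3% ± 1.95, that of Pfkl from 47.6% ± 1.02 to 26% ± 1.46, and that of Pfkm overlapped between groups. Pfkp shares 748 exonic bases with Pitrm1 on the opposite strand. Pitrm1 had a mean of 23.6 FPKM under PBS and 33.6 FPKM under nanoparticles. The sources used here do not say whether strand was used in counting, so the level of Pfkp is uncertain.

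**Figure D2:**
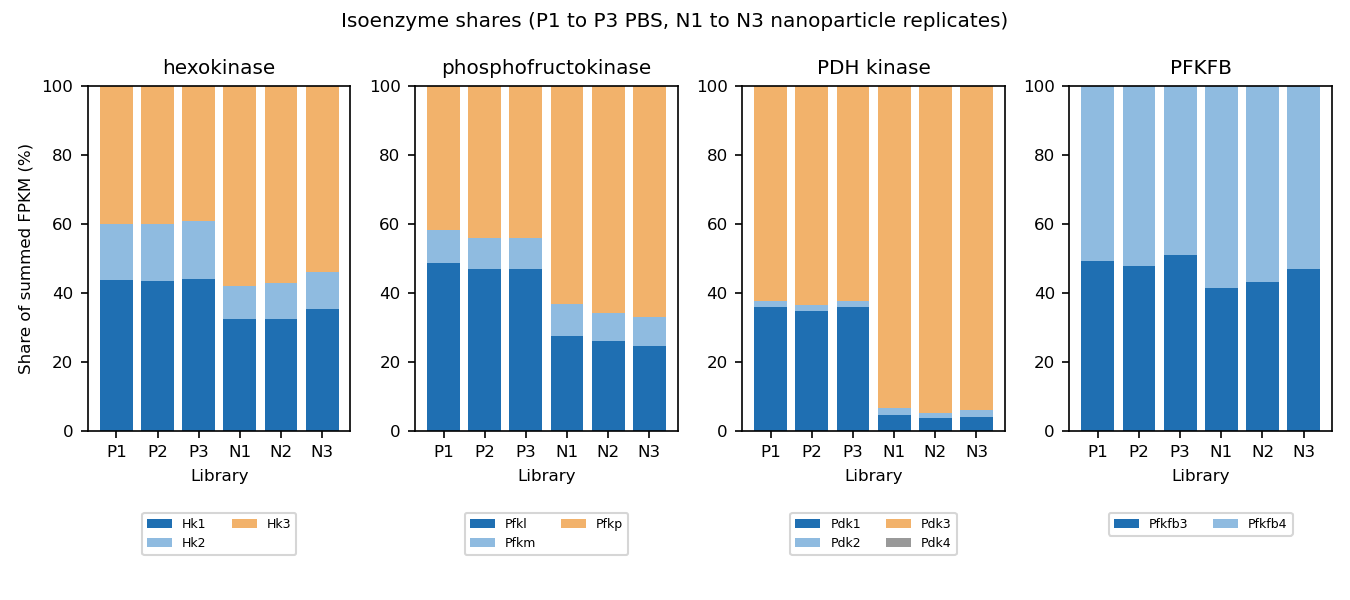
Share of each isoenzyme in the summed FPKM of its family (%), for hexokinases, phosphofructokinases, PDK genes and the PFKFB pair, with 1 bar per library. Hk3, Pfkp and Pdk3 take larger shares in all 3 nanoparticle libraries (N1 to N3) than in any PBS library (P1 to P3).

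Summed over isoenzymes, the isomerase and the aldolase steps fell less than phosphofructokinase. Gpi1, which makes fructose 6-phosphate, fell from 317 ± 5.22 to 236 ± 15.6 FPKM. Aldoa, the aldolase of muscle and most dividing cells, had 1284, 1325 and 1246 FPKM under PBS and 1257, 1166 and 1048 FPKM under nanoparticles. The groups overlapped, because nanoparticle replicate 1 was above PBS replicate 3, and Aldoa was not called (log2 fold change -0.15 ± 0.07, 95% interval -0.32 to 0.01, limma adjusted p = 0.0832). With the replicate number as a block it was called lower (adjusted p = 0.0223), as it was under each alternative scaling and without nanoparticle replicate 1. Aldoc, the brain form, which held 1.77% of the aldolase FPKM under PBS, fell from 23.4, 24.1 and 21.9 FPKM to 8.74, 8.49 and 8.60 FPKM (log2 fold change -1.33 ± 0.06, limma adjusted p = 4.58e-08). Tpi1, which interconverts the 2 products of aldolase, fell 1.34-fold, from 659 ± 13.7 to 492 ± 55.6 FPKM.

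Gapdh, which oxidises glyceraldehyde 3-phosphate and is often used as a reference gene, was listed far below its neighbours in the pathway. It had 80.5, 93.9 and 105 FPKM under PBS and 82.9, 82.5 and 73.5 FPKM under nanoparticles, while Tpi1 and Pgk1, on either side of it, had means of 659 and 932 FPKM under PBS. The groups overlapped, with PBS replicate 1 below 2 of the nanoparticle libraries, and Gapdh was not called (log2 fold change -0.22 ± 0.09, limma adjusted p = 0.0545). Without PBS replicate 1 it was called lower (log2 fold change -0.32, adjusted p = 6.31e-03), as it was under each alternative scaling. In GENCODE M21, 76 other genes have a transcript that aligned to Gapdh over at least 300 bases at an identity of at least 95%, and 3 of them are rows of the table, with summed means of 21.6 FPKM under PBS and 19.7 FPKM under nanoparticles. The level of Gapdh is uncertain for that reason, and the part of these copies in its low value was not tested.

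From 1,3-bisphosphoglycerate to pyruvate, 4 of the 5 member genes fell, where 34.5% of all tested genes did. Pgk1, which makes the first ATP of the pathway's payoff and is a classical HIF target, had 928, 954 and 914 FPKM under PBS and 552, 565 and 554 FPKM under nanoparticles. It fell 1.67-fold (log2 fold change -0.74 ± 0.05, limma adjusted p = 7.27e-07), with tight replicates in both groups. Pgam1, the mutase that moves the phosphate, fell from 552 ± 18.8 to 393 ± 16.7 FPKM. Pkm, pyruvate kinase and the most abundant member, had 4127, 4036 and 3889 FPKM under PBS and 2902, 2639 and 2535 FPKM under nanoparticles. It fell 1.49-fold (limma adjusted p = 5.27e-05). The table gives 1 value for the gene, so its 2 splice forms could not be separated.

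The enolases crossed in direction while differing greatly in level. Eno1, the common form, had 1296, 1251 and 1067 FPKM under PBS and 648, 596 and 541 FPKM under nanoparticles, and fell 2.02-fold (log2 fold change -1.01 ± 0.09, limma adjusted p = 3.79e-06). Eno2, the neuronal form, rose from 4.69, 5.29 and 5.71 FPKM to 18.6, 16.5 and 17.4 FPKM (log2 fold change 1.57 ± 0.08, limma adjusted p = 8.43e-08). Its share of enolase FPKM went from 0.438% to 2.87%, so Eno1 remained the main form. Eno1b is 99.5% identical to Eno1 over 1736 bases and has a row of its own, with means of 587 and 322 FPKM. Both rows were lower under nanoparticles, and the split of fragments between them is uncertain.

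Lactate dehydrogenase had the lowest ratio of any step. Ldha, the form that favours lactate production, had 1411, 1479 and 1433 FPKM under PBS and 623, 590.3 and 535 FPKM under nanoparticles, all of the latter below all of the former. It fell 2.47-fold (log2 fold change -1.31 ± 0.07, limma adjusted p = 8.35e-08). Ldhb, the form of oxidative tissues, was listed at 0 in 5 libraries and at 0.0386 FPKM in nanoparticle replicate 3, and was not tested.

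**Figure D3:**
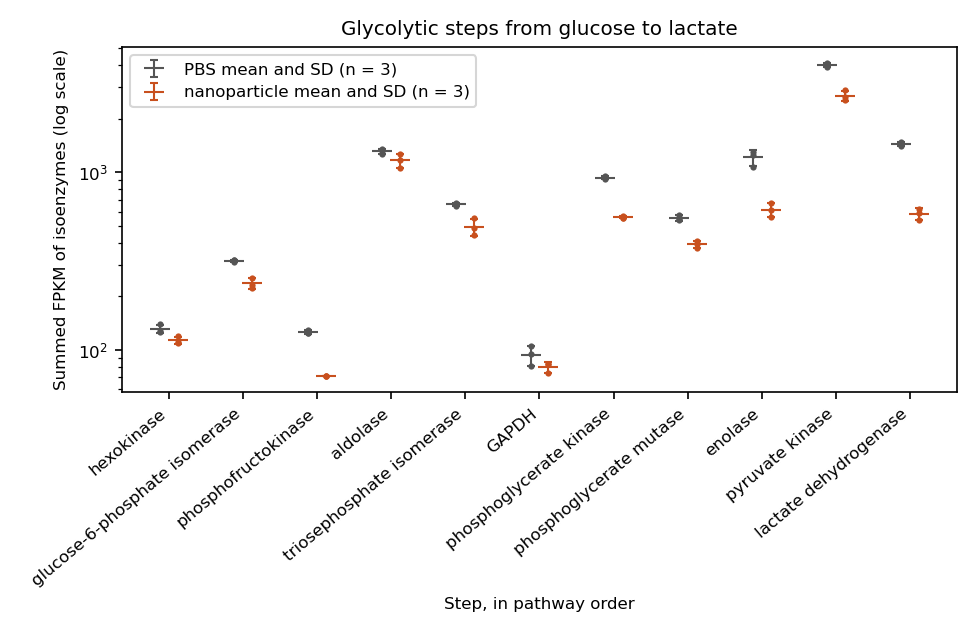
Summed FPKM of the member isoenzymes at each step in pathway order (log axis), with 1 point per library and bars for the mean ± SD (n = 3). All 11 steps have a lower nanoparticle mean, from 0.405 of the PBS mean at lactate dehydrogenase to 0.891 at aldolase, and the groups overlap at GAPDH alone. At aldolase they are barely apart, with a lowest PBS sum of 1268 and a highest nanoparticle sum of 1266 FPKM, and Aldoa by itself overlaps. Of all tested genes, 78.8% had groups that did not overlap.

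Summed over isoenzymes, the ratio of nanoparticle to PBS means was 0.405 at lactate dehydrogenase, 0.506 at enolase, 0.566 at phosphofructokinase and 0.598 at phosphoglycerate kinase. It was 0.670 at pyruvate kinase, 0.712 at phosphoglycerate mutase, 0.746 at triosephosphate isomerase and 0.747 at glucose-6-phosphate isomerase. The nearest to 1 were GAPDH at 0.855, hexokinase at 0.866 and aldolase at 0.891. The steps did not fall in proportion, and the order does not follow their order in the pathway.

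The kinases that inhibit pyruvate dehydrogenase changed in makeup more than in sum. Pdk1, a HIF target, had 14.5, 13.9 and 13.9 FPKM under PBS and 1.58, 1.38 and 1.47 FPKM under nanoparticles. It fell 9.57-fold as a ratio of means (log2 fold change -2.61 ± 0.07, limma adjusted p = 1.36e-09), the lowest log2 fold change among the 27. Pdk3 rose from 25.2, 25.4 and 24.2 FPKM to 32.2, 35.6 and 33.4 FPKM (log2 fold change 0.42 ± 0.06, limma adjusted p = 1.06e-04). Pdk2 stayed between 0.512 and 0.715 FPKM in all libraries with overlapping groups, and Pdk4, the form linked to fasting, was listed at 0 in 5 libraries and at 0.0488 FPKM in nanoparticle replicate 1. Neither was tested. Pdk1 made up 35.6% ± 0.668 of the PDK FPKM under PBS and 4.13% ± 0.442 under nanoparticles, and Pdk3 62.7% ± 0.643 and 94.0% ± 0.867. The summed level was 39.8 ± 0.787 against 35.9 ± 1.51 FPKM.

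The PFKFB enzymes make and break fructose 2,6-bisphosphate, the strongest activator of phosphofructokinase. Pfkfb4 rose from 6.16, 6.22 and 6.0 FPKM to 8.82, 8.45 and 8.52 FPKM (log2 fold change 0.43 ± 0.07, limma adjusted p = 1.90e-04). Pfkfb3, the form with the strongest kinase activity, had 5.99, 5.69 and 6.27 FPKM under PBS and 6.27, 6.44 and 7.53 FPKM under nanoparticles. The highest PBS and the lowest nanoparticle value are equal to 3 digits, with no overlap in the unrounded values, and it was not called (log2 fold change 0.15 ± 0.08, 95% interval -0.04 to 0.34, limma adjusted p = 0.132).

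Among the oxygen-sensing members, the factor and its main hydroxylase went opposite ways. Hif1a, the oxygen-regulated subunit of HIF-1, rose from 27.2, 29.1 and 31.1 FPKM to 37.6, 36.7 and 45.8 FPKM (log2 fold change 0.44 ± 0.09, limma adjusted p = 1.22e-03). Egln1, which encodes PHD2, the hydroxylase that marks HIF-1 alpha for destruction and is itself a HIF target, fell from 11.4, 11.3 and 11.7 FPKM to 3.89, 3.68 and 3.21 FPKM. The 3.19-fold drop (log2 fold change -1.44 ± 0.08, limma adjusted p = 1.14e-07) separated the groups completely. Egln3, which encodes PHD3, was listed at 0 in 5 libraries and at 0.0597 FPKM in nanoparticle replicate 2, and was not tested. Egln2, a prolyl hydroxylase gene outside the members, is named here after its value was seen. It rose from a mean of 18.8 to 23.5 FPKM with overlapping groups (log2 fold change 0.30 ± 0.10, limma adjusted p = 0.0202). Its PBS mean was above that of Egln1, so the hydroxylase genes did not share 1 direction.

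The other hypoxia-inducible genes were led by Ndrg1, a stress-responsive gene that is also induced by DNA damage and metals. It had 23.4, 21.6 and 24.1 FPKM under PBS and 133, 132 and 125 FPKM under nanoparticles. The rise was 5.65-fold (log2 fold change 2.45 ± 0.06, limma adjusted p = 5.78e-10), the highest log2 fold change among the 27. Vegfa, the angiogenic growth factor, rose from 6.54, 7.51 and 7.54 FPKM to 15.2, 16.0 and 15.5 FPKM (log2 fold change 1.02 ± 0.07, limma adjusted p = 8.14e-07). P4ha1, a catalytic subunit of collagen prolyl 4-hydroxylase, rose 1.74-fold, from 38.0, 39.0 and 42.9 FPKM to 64.5, 69.6 and 74.0 FPKM. Bnip3, a receptor for the removal of mitochondria and a strong HIF target, went against these. It had 30.1, 34.8 and 35.6 FPKM under PBS and 22.8, 24.0 and 25.0 FPKM under nanoparticles, and fell 1.40-fold (log2 fold change -0.46 ± 0.07, limma adjusted p = 2.53e-04). Bnip3 and Ndrg1 each share exonic bases with antisense genes, 504 bases with Gm45507 for the former and 419 bases with Gm17035 for the latter, which are not rows of the table. Hk1, Gpi1 and Hif1a likewise overlap unlisted genes on the opposite strand. On the same strand, Pkm shares 767 exonic bases with Gm49759, Pfkm 341 with Gm26513 and Hif1a 148 with Gm49321, all unlisted. Other unlisted genes pass the same limits of similarity as the copies of Gapdh, 5 in Bnip3, 4 in Pgk1 and 2 in Ldha. Gpi1, Pfkm, Tpi1, Pgam1, Pkm, Ldhb and Ndrg1 have 1 each, and Eno1 has 3, of which Eno1b alone is a row. In Pgk1, the unlisted gene Gm5537 is 100% identical over 1252 bases. The levels of these genes are uncertain for that reason, and the part of the copies was not tested.

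**Figure D4:**
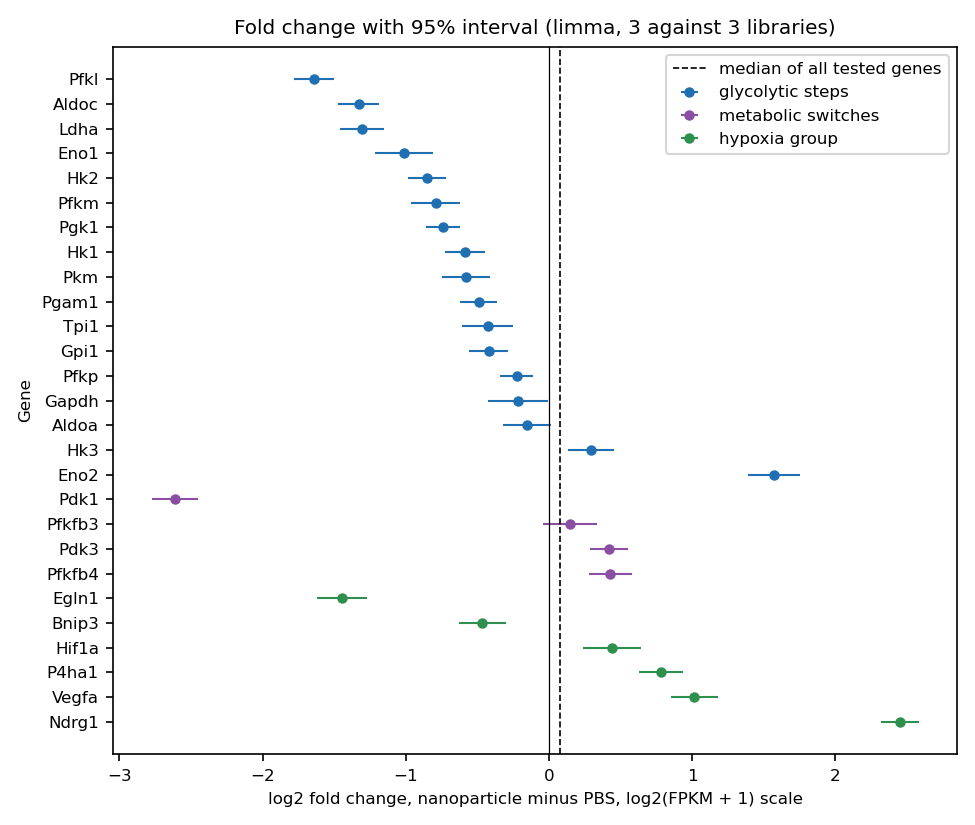
Log2 fold change (nanoparticle minus PBS, log2(FPKM + 1) scale) with its 95% interval from limma for the 27 tested members, by role. The blue points of the glycolytic steps lie mostly left of 0, the green hypoxia genes lie on both sides, and the dashed line marks the median of all tested genes, 0.08.

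The genes that feed and drain the route did not move as 1 group. Of 10 tested transporters of glucose and lactate with their chaperone, 5 rose and 5 fell, against 42.7% and 34.5% of all tested genes, and the median change was 0.01 on the log2 scale. Slc16a7, named after its value was seen, is among those that fell and passed the filter through its PBS level alone. Slc16a3, which encodes the lactate exporter MCT4, fell from 129, 111 and 107 FPKM to 50.2, 32.8 and 41.2 FPKM (log2 fold change -1.48 ± 0.13, limma adjusted p = 4.22e-06). Slc2a8, an intracellular sugar transporter, fell from 4.74 ± 0.141 to 1.98 ± 0.332 FPKM. Slc2a6, a transporter of inflammatory macrophages, rose from 37.1, 36.7 and 34.4 FPKM to 82.9, 76.5 and 73.4 FPKM (log2 fold change 1.08 ± 0.06, limma adjusted p = 1.68e-07). Slc2a4, the insulin-responsive transporter, rose from 0.216 ± 0.0545 to 2.08 ± 0.169 FPKM, and it passed the filter through its nanoparticle level alone. Slc2a1, the main glucose transporter, named here after its value was seen, rose slightly, from a mean of 48.2 to 59.1 FPKM (limma adjusted p = 3.91e-03).

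Pyruvate entry to mitochondria was mixed. Of 11 tested genes 3 rose (27.3%) and 4 fell (36.4%), against 42.7% and 34.5% of all tested genes, and 4 were not called. Pdhb, the beta subunit of the first pyruvate dehydrogenase enzyme, rose from 82.4, 87.3 and 84.3 FPKM to 162, 160.1 and 165 FPKM (log2 fold change 0.93 ± 0.05, limma adjusted p = 9.79e-08), while Dlat, its second enzyme, fell from 57.1 ± 1.81 to 33.3 ± 0.476 FPKM. The 2 subunits of the mitochondrial pyruvate carrier also moved apart. Mpc2 rose from 52.0 ± 2.94 to 103 ± 4.55 FPKM, and Mpc1 fell from 30.6 ± 1.48 to 18.4 ± 0.956 FPKM.

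In the pentose phosphate pathway, which branches off after hexokinase and yields NADPH, 7 of 11 tested genes fell and 4 rose (median log2 fold change -0.25). These shares were 63.6% and 36.4%, against 34.5% and 42.7% of all tested genes. Pgls, the lactonase, fell from 110.3, 107 and 98.4 FPKM to 31.9, 26.5 and 26.3 FPKM (log2 fold change -1.87 ± 0.08, limma adjusted p = 2.53e-08), and H6pd, the enzyme of the endoplasmic reticulum, fell from 7.23 ± 0.341 to 3.47 ± 0.119 FPKM. G6pdx, the entry enzyme that acts just before Pgls, rose from 119 ± 3.15 to 153 ± 2.56 FPKM, and Rpia rose from 21.4 ± 1.08 to 28.1 ± 0.477 FPKM. Of 19 tested other glycolytic and glycogen genes, 8 fell (42.1%), 5 rose (26.3%) and 6 were not called. Eno1b, whose fragments are not surely split from those of the member Eno1, is counted among those that fell. Gpd1l fell 2.76-fold and the glycogen phosphorylase gene Pygb 2.04-fold, while Pfkfb2, a relative of Pfkfb3, rose 2.18-fold and Bpgm, which makes 2,3-bisphosphoglycerate, 1.37-fold.

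Of 13 tested regulators of HIF, 6 rose (46.2%, near the 42.7% of all tested genes), 3 fell (23.1%, against 34.5%) and 4 were not called. Vhl, which recognises hydroxylated HIF-1 alpha, rose from 8.45, 8.83 and 8.50 FPKM to 20.8, 19.6 and 19.4 FPKM (log2 fold change 1.12 ± 0.06, limma adjusted p = 1.34e-07). Eloc, a partner of Vhl in the ubiquitin ligase, rose from 55.7 ± 5.81 to 105 ± 3.17 FPKM. Cited2, which competes with HIF-1 alpha for its coactivators, fell from 281, 273 and 269.7 FPKM to 136, 140.4 and 133 FPKM, and Cul2, the scaffold of the ligase, fell by a log2 fold change of -0.32 with overlapping groups.

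Among 33 tested other hypoxia-inducible genes, 17 rose (51.5%), 14 fell (42.4%) and 2 were not called, and the median change was 0.18 on the log2 scale. Nos2, the inducible nitric oxide synthase, which is also a target of inflammatory signals, rose from 0.835 ± 0.0564 to 46.8 ± 1.28 FPKM and passed the filter through its nanoparticle level alone. Ak4, a mitochondrial adenylate kinase, fell from 16.3, 15.5 and 16.0 FPKM to 5.0, 5.05 and 6.15 FPKM, and Car12, a carbonic anhydrase, fell from 23.5 ± 0.433 to 10.4 ± 0.663 FPKM. The shares that rose and fell were each above those of all tested genes, 42.7% and 34.5%, and the excess was not tested. The list had no common direction. Car9, named after its value was seen, is among those that fell and passed the filter through its PBS level alone.

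**Figure D5:**
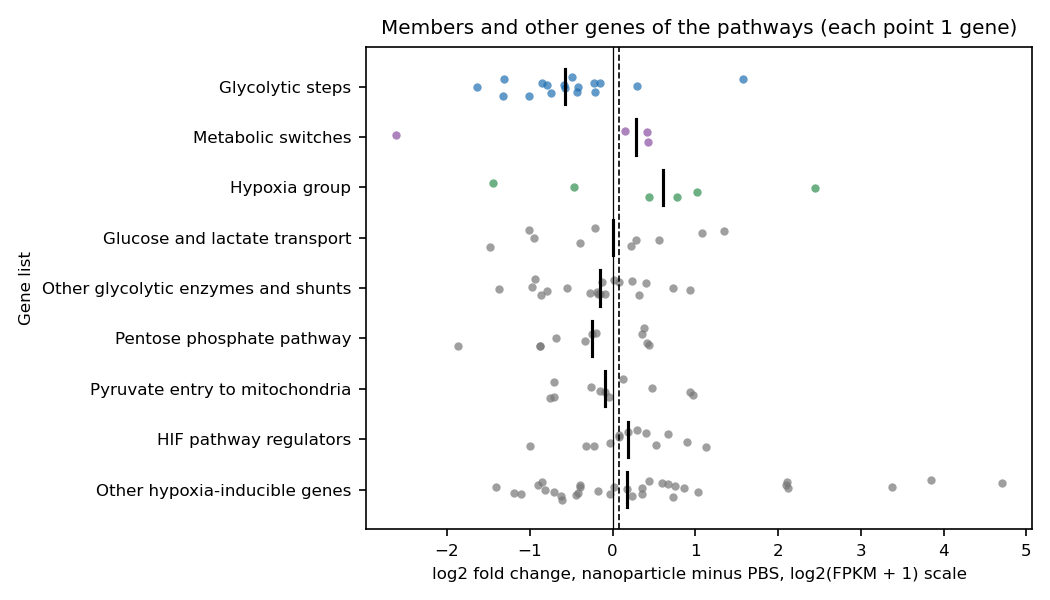
Log2 fold change (nanoparticle minus PBS, log2(FPKM + 1) scale) of each tested gene in the 3 member groups and 6 further lists, with 1 point per gene and a black bar at the list's median. The glycolytic steps have the lowest median of the 9 groups, -0.58, and the 6 further lists spread to both sides of 0.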

How the data were processed

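RNA was isolated with TRIzol and made into BGI mRNA libraries, per the labels' protocols. The authors deposited 1 table with a column per library; FPKM is inferred from the deposited values, since the header names no unit (values are not whole and column sums differ). Per the submitters' processing notes, which give no versions, STAR and featureCounts were used with GRCm38 and mm10. Columns were matched to libraries by name. The column of PBS replicate 1 carries a suffix with no stated meaning. Rows without an Ensembl gene identifier (509, at most 0.497% of a library's FPKM) were left out.

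Members were fitted together with the whole table in limma 3.58.1 (R 4.3.3): log2(FPKM + 1), mean of at least 1 FPKM over 6 libraries (10229 genes), intensity trend, treatment as the only term, two-sided, Benjamini-Hochberg adjustment over all tested genes. Intervals are limma's 95% intervals. The fit was checked on simulated data. Members and lists were chosen with earlier results of these data known. All members are named, and of each further list the 2 genes with the smallest p in each direction, except 1 that is not reported here.

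Deviations from the group means of same-numbered libraries correlated at 0.13, 0.11 and 0.35 over tested genes. Differently numbered pairs ranged from -0.26 to 0.13, and PBS 2 correlated slightly more with nanoparticle 1 (0.1341) than with nanoparticle 2 (0.1149). Every same-numbered pair exceeded 0.1, so by that rule the replicate number was treated as pairing the samples in an alternative fit with a block. Other alternatives were pseudocounts of 0.1 and 10 FPKM, no filter and a mean of at least 5 FPKM, rescaling to a common sum, upper quartile and median-ratio scaling, no trend, and each library left out. The sources used here give no library totals. Whole fragments were not recovered, so no count test was run. Loci come from GENCODE M21, similar transcripts from BLAST 2.17.0, and promoter windows from RefSeq (GRCm38.p6); in 40 of the 45 windows the last 30 bases were found in a transcript of the gene. Plots used matplotlib 3.10.9, tables pandas 2.3.3 (Python 3.11.15).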

Additional observations from a re-analysis of the deposited data

How the results depend on the processing

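Over 15 alternatives (9 settings and 6 fits that each left out 1 library) no tested member changed direction, and each of the 24 called members kept its call. In 9 cases a call was gained, 5 for Aldoa and 4 for Gapdh. The adjusted p of Aldoa ranged from 0.00498 to 0.217 and that of Gapdh from 0.00631 to 0.208. With the replicate block 17 members were called lower and 8 higher, against 16 and 8 without it, and the block changed no other call of a member. Scaling to a common sum, upper quartile and median-ratio scaling each called 18 lower. Upper quartile scaling shifted the median log2 fold change of all genes by -0.11, with Hk3 at 0.17. Without any 1 library 16 to 17 members were called lower and 8 higher. Over all genes the number called higher ranged from 4110 to 4276 and lower from 3257 to 3605 without 1 library. It was 3735 higher and 4163 lower under upper quartile scaling, 3942 and 3947 under median-ratio scaling and 6244 and 3560 without a filter, against 4366 and 3530, so which direction is the more frequent over all genes depends on scaling. A pseudocount of 10 FPKM brought the log2 fold change of Pdk1 from -2.61 to -1.07. Small folds such as that of Hk3 (adjusted p up to 0.0414) lie nearest to what 3 libraries a group can show.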
